A study of Mus musculus with 4 samples.

Results

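The interferon-stimulated genes described here are 47 genes that cells switch on when they sense interferon. They were chosen as a fixed list of mouse symbols, with earlier results of these data known. They were found in the tables by their Entrez gene numbers, with the estimated reads of all transcripts of a gene added up. All 47 were present among the 17543 genes in the tables, and all 47 had enough reads to be among the 12837 genes tested. The livers came from C57BL/6 mice that carried the Ezh2 point mutation K307R on both copies (K307R, 2 livers) and from wild-type C57BL/6 mice (WT, 2 livers). Ezh2 encodes the enzyme of the Polycomb complex PRC2, which places a repressive methyl mark on histone H3. Whole livers were flash frozen and RNA was extracted with TRIzol. The labels give no sex, age, hour of collection, infection status or number of founder lines, and do not say whether the replicates are different animals. The p values therefore reflect only how far these samples lie apart, which may be technical. The comparison asked whether the genotypes differed in antiviral effectors, nucleic acid sensors and the GTPases of the interferon gamma response.

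Interferons are secreted proteins that cells release when they detect viral or misplaced nucleic acid. Type I interferons act through the receptor IFNAR and the kinases JAK1 and TYK2, which activate a complex that contains STAT2 and IRF9. This complex binds the interferon-stimulated response element (ISRE) in the promoters of antiviral genes. Interferon gamma, a product of T and NK cells, acts through a different promoter element, GAS, and through IRF1. In liver both hepatocytes and the resident macrophages respond to these signals, and many of the genes keep a low level in the absence of infection.

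The 4 libraries held 18602928 and 18749610 expected counts in the K307R livers and 19289715 and 20044832 in the WT livers. Genotype coincided with other differences between these livers. Xist, the RNA of the inactive X chromosome, was at 327 and 573 CPM in the K307R livers, against 0.347 and 0.284 CPM in the WT livers, and 4 Y-linked genes had reads in both WT livers and 0 reads in both K307R livers. Arntl, the core clock activator, was at 12.3 and 23.7 CPM in the K307R livers, against 1.1 and 1.18 CPM in the WT livers. Genotype, sex-chromosome pattern and clock state therefore cannot be told apart for any result below.

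In the K307R livers 6 of 24 antiviral effectors, 1 of 3 signalling factors and 1 of 5 nucleic acid sensors fell, and 0 of 6 interferon gamma GTPases passed the test. Of the 47 genes, 8 fell and 0 rose at a Benjamini-Hochberg adjusted p under 0.05 in edgeR (quasi-likelihood F test). These were Usp18, Isg15, Ifi44, Ifit3, Irf7, Ifitm3, Bst2 and Ifih1. Over all genes tested, 1.47% were called lower and 1.39% higher (0.966% and 1.46% with total-count scaling). The list and its roles were chosen with earlier results of these data known. The shares over all genes here therefore describe the list and do not test it. At an unadjusted p under 0.05, 21 of the 47 were lower and 0 higher, against 8.31% lower and 8.5% higher over all genes. In CPM, both K307R livers lay below both WT livers for 30 of the 47 and above them for 1, against 23.4% and 25.2% over all genes. Of these 30, Irf9, Lgals3bp, Psmb8, Psmb9 and Tap1 overlapped between genotypes in FPKM. The median log2 fold change, K307R minus WT, was -0.46, against 0.01 over all genes tested, and it was below 0 in 41 of the 47 genes, against 48.9% of all genes. In whole liver, fewer cells of a type and less RNA per cell cannot be told apart. Without K307R replicate 1 none of the 8 kept its call (log2 fold changes -1.49 to -1.11), where 0.921% of all genes were called lower. Without K307R replicate 2 Isg15, Usp18 and Ifi44 of the 8 kept theirs, where 0.709% of all genes were called lower. The log2 fold changes of the 8 were then -2.11 to -1.06. In these 2 fits the spread between livers came from the WT pair alone, and the cause of the lost calls was not tested. On log2(FPKM + 1) or log2(FPKM + 0.1) Ifit3, Usp18 and Bst2 kept theirs, 3 of 8, where 0.65% and 0.66% of all genes were called lower. DESeq2 called all 8 and Ifit2 lower and 0 higher, against 2.69% lower and 2.68% higher over all genes. No member was called higher in any of the settings run, DESeq2 and limma-voom included.

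**Figure D1:**
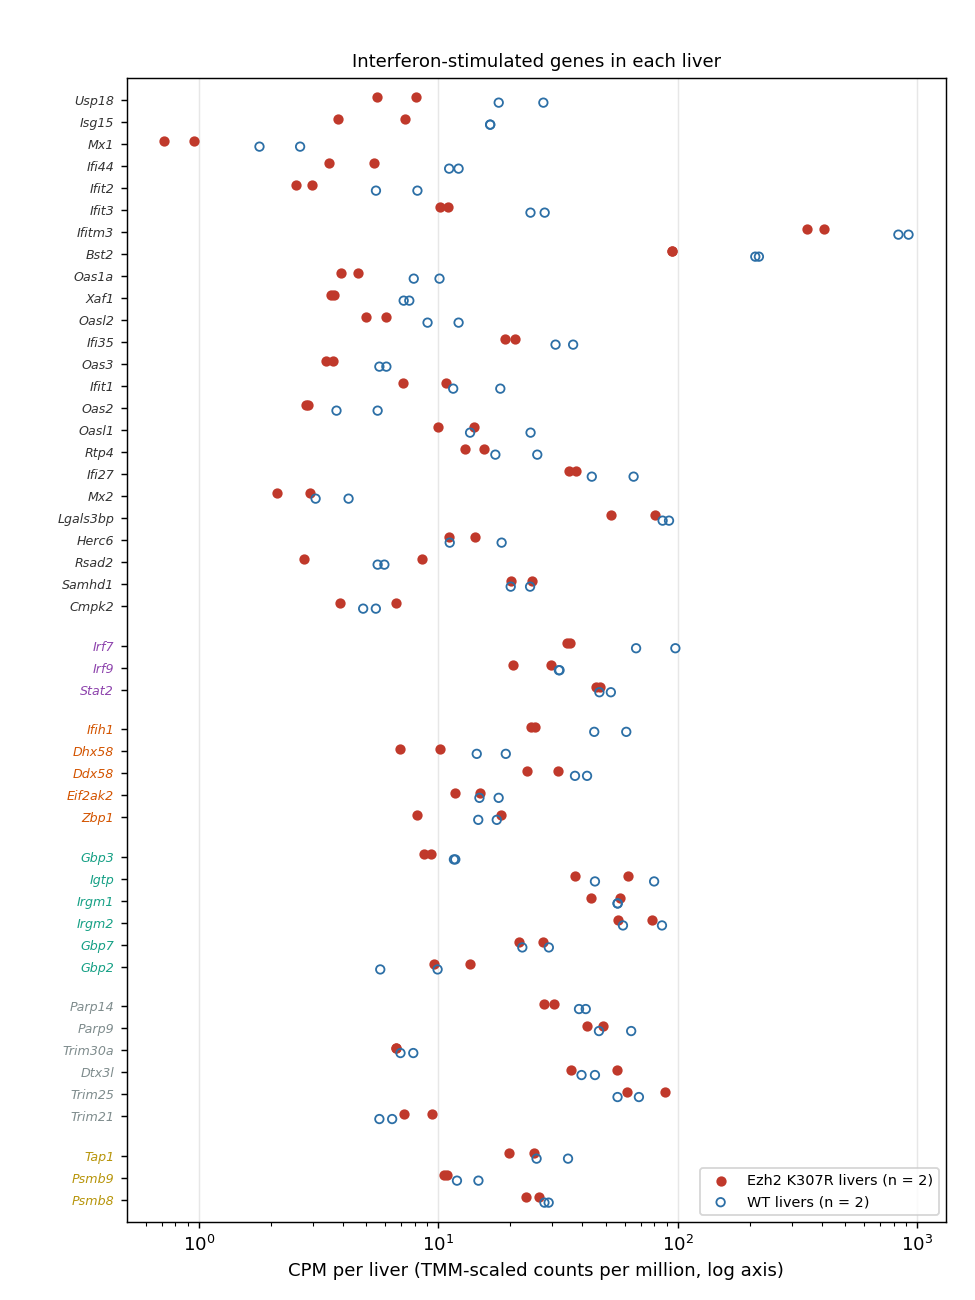
Level of each of the 47 genes in each liver, in CPM on a log axis, with genes grouped and coloured by role and ordered by fold change within a role. Filled red points are the 2 K307R livers and open blue points the 2 WT livers; the points separate in the upper part of the antiviral effectors, from Usp18 to Oas2, and overlap in most GTPases.

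Among the antiviral effectors, 6 of 24 fell and 0 rose, 16 of 24 were lower at an unadjusted p under 0.05, and the median log2 fold change was -0.75. The genes of the ISG15 system came first. Isg15 (Entrez gene 100038882, chromosome 4 from 156199424 to 156200818, GRCm38.p6, the assembly of mm10) encodes the ubiquitin-like protein that is joined to other proteins during the response. It was at 3.82 and 7.26 CPM in the K307R livers, against 16.5 and 16.5 CPM in the WT livers (log2 fold change -1.57, SE 0.31, edgeR adjusted p = 0.0426). The WT livers were alike, and the K307R livers lay well below them but differed from each other. Usp18 (Entrez gene 24110, chromosome 6 from 121245906 to 121270917), the protease that removes ISG15 from proteins and also damps the type I receptor, was at 5.57 and 8.08 CPM in the K307R livers, against 27.5 and 17.9 CPM in the WT livers (log2 fold change -1.73, SE 0.29, edgeR adjusted p = 0.0264). It had the largest fall of the 47, and its livers did not overlap. Herc6, the main ligase for ISG15 in the mouse, was at 11.1 and 14.3 CPM in the K307R livers, against 18.4 and 11.2 CPM in the WT livers, which overlapped (log2 fold change -0.21, SE 0.28, edgeR adjusted p = 0.764).

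The IFIT proteins bind foreign RNA ends and block their translation. Ifit3 (Entrez gene 15959, chromosome 19 from 34583119 to 34588982) was at 10.1 and 10.9 CPM in the K307R livers, against 27.8 and 24.3 CPM in the WT livers, and fell with the smallest adjusted p of the 47 (log2 fold change -1.30, SE 0.20, edgeR adjusted p = 0.0182). Both pairs of livers were tight and far apart. Its near copy Ifit3b could have shared reads, and the sum of both copies was 12.9 and 13.4 CPM in the K307R livers, against 32.1 and 27.9 CPM in the WT livers, a log2 ratio of -1.19. Ifit2, which lies 6.6 kb from Ifit3 on chromosome 19, was at 2.97 and 2.56 CPM in the K307R livers, against 5.5 and 8.19 CPM in the WT livers without overlap (log2 fold change -1.31, SE 0.32, edgeR adjusted p = 0.0792). Ifit1, 51.9 kb on the other side of Ifit3, was at 7.16 and 10.7 CPM in the K307R livers, against 18.2 and 11.5 CPM in the WT livers (log2 fold change -0.73, SE 0.30, edgeR adjusted p = 0.273). All 3 neighbours were thus lower in both K307R livers, and 1 of the 3 was called.

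Ifitm3 and Bst2 encode membrane proteins, of which the first blocks the entry of enveloped viruses and the second, tetherin, holds budding virus at the cell surface. They were also the most abundant of the 47 per transcript length. Ifitm3 (Entrez gene 66141, chromosome 7 from 141009590 to 141010744) was at 406 and 346 CPM in the K307R livers, against 919.98 and 835 CPM in the WT livers (log2 fold change -1.22, SE 0.24, edgeR adjusted p = 0.0435), and on the FPKM scale at 659.6 and 579 FPKM in the K307R livers, against 1319 and 1409 FPKM in the WT livers. Bst2 (Entrez gene 69550, chromosome 8 from 71534255 to 71537472) was at 94.6 and 94.6 CPM in the K307R livers, against 218 and 211 CPM in the WT livers (log2 fold change -1.18, SE 0.20, edgeR adjusted p = 0.0266), and at 113 and 117 FPKM in the K307R livers, against 231 and 262 FPKM in the WT livers on the FPKM scale. In both genes the distance between genotypes was several times that within a genotype. Of the other members of the Ifitm cluster, Ifitm2 was at 211 and 174 CPM in the K307R livers, against 202 and 213 CPM in the WT livers (log2 fold change -0.11, SE 0.22, edgeR adjusted p = 0.848) and Ifitm1 at 8.22 and 6.85 CPM in the K307R livers, against 5.21 and 5.77 CPM in the WT livers (log2 fold change 0.46, SE 0.25, edgeR adjusted p = 0.428). Bst2 is also known as a surface antigen of plasmacytoid dendritic cells, whose other 6 markers were close to 0 in all livers and were not tested.

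Ifi44 (Entrez gene 99899, chromosome 3 from 151730922 to 151749910), a cytoplasmic protein strongly induced by type I interferon, was at 3.5 and 5.37 CPM in the K307R livers, against 11.1 and 12.2 CPM in the WT livers (log2 fold change -1.39, SE 0.28, edgeR adjusted p = 0.044). It completes the called effectors, with both K307R livers at less than the lower WT liver. Its call was lost with total-count scaling (adjusted p = 0.0878), as was that of Isg15 (0.0726), and that of Ifi44 also at a minimum of 1 CPM on average (0.05002).

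The oligoadenylate synthetases, which make the messenger that activates RNase L on double-stranded RNA, had no call. Oas1a was at 3.93 and 4.6 CPM in the K307R livers, against 10.1 and 7.9 CPM in the WT livers (log2 fold change -1.08, SE 0.27, edgeR adjusted p = 0.0823). Its neighbours on chromosome 5 were Oas3, at 3.4 and 3.63 CPM in the K307R livers, against 6.08 and 5.68 CPM in the WT livers (log2 fold change -0.74, SE 0.28, edgeR adjusted p = 0.228), and Oas2, at 2.86 and 2.81 CPM in the K307R livers, against 3.76 and 5.59 CPM in the WT livers (log2 fold change -0.72, SE 0.33, edgeR adjusted p = 0.323). None of these 3 overlapped between genotypes. The summed level of Oas1a and its near copy Oas1g was 4.67 and 6.29 CPM in the K307R livers, against 13.7 and 11.03 CPM in the WT livers. The synthetase-like genes lie 10.9 kb apart on the same chromosome. Oasl2 was at 4.99 and 6.04 CPM in the K307R livers, against 9.03 and 12.2 CPM in the WT livers without overlap (log2 fold change -0.94, SE 0.26, edgeR adjusted p = 0.114), and Oasl1, whose protein represses translation of Irf7, was at 14.2 and 10.03 CPM in the K307R livers, against 24.3 and 13.6 CPM in the WT livers with overlap (log2 fold change -0.64, SE 0.31, edgeR adjusted p = 0.353).

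The Mx genes encode dynamin-like GTPases that trap viral nucleocapsids, although common inbred strains such as C57BL/6 carry defective Mx alleles. Mx1 was the lowest of the 47 per length, with 18 and 14 reads in the K307R livers, against 31 and 56 reads in the WT livers (log2 fold change -1.41, SE 0.44, edgeR adjusted p = 0.154). Most of its FPKM fell on a transcript listed as non-coding, at 0.26 and 0.27 FPKM in the K307R livers, against 0.47 and 0.87 FPKM in the WT livers. Mx2 was at 2.12 and 2.92 CPM in the K307R livers, against 4.22 and 3.08 CPM in the WT livers (log2 fold change -0.53, SE 0.35, edgeR adjusted p = 0.511). Neither gene overlapped between genotypes, and the few reads of Mx1 limit its precision.

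Xaf1, a gene of interferon-linked apoptosis, was at 3.66 and 3.58 CPM in the K307R livers, against 7.17 and 7.57 CPM in the WT livers (log2 fold change -1.03, SE 0.26, edgeR adjusted p = 0.0882). Ifi35, a cytoplasmic leucine zipper protein, was at 20.96 and 19.1 CPM in the K307R livers, against 30.9 and 36.6 CPM in the WT livers (log2 fold change -0.75, SE 0.20, edgeR adjusted p = 0.0951). Both separated the genotypes without a call. Rtp4, a chaperone of receptor transport, was at 15.6 and 12.99 CPM in the K307R livers, against 25.9 and 17.3 CPM in the WT livers (log2 fold change -0.60, SE 0.25, edgeR adjusted p = 0.279). Ifi27, which encodes a small mitochondrial membrane protein, was at 37.5 and 35.1 CPM in the K307R livers, against 65.4 and 43.8 CPM in the WT livers (log2 fold change -0.59, SE 0.23, edgeR adjusted p = 0.252), and its reads could be shared with Ifi27l2a, whose annotated span contains it. These 2 were also lower in both K307R livers.

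The remaining effectors had log2 fold changes nearer to 0. Rsad2 encodes viperin, which makes a chain-terminating nucleotide, and Cmpk2, 12.7 kb away on chromosome 12, encodes a mitochondrial nucleotide kinase. Rsad2 was at 2.76 and 8.54 CPM in the K307R livers, against 5.96 and 5.59 CPM in the WT livers (log2 fold change -0.03, SE 0.47, edgeR adjusted p = 0.986, 95% interval -1.12 to 1.06). Cmpk2 was at 3.87 and 6.65 CPM in the K307R livers, against 4.86 and 5.49 CPM in the WT livers (log2 fold change 0.02, SE 0.33, edgeR adjusted p = 0.984, 95% interval -0.74 to 0.78). In both genes K307R replicate 1 was the lowest and K307R replicate 2 the highest of the 4 livers, so that the sign of the difference depended on the replicate: without K307R replicate 1 the log2 fold change of Rsad2 was 0.57, and without K307R replicate 2 that of Cmpk2 was -0.42. Samhd1, a nucleotide hydrolase that limits retroviruses, was at 20.2 and 24.6 CPM in the K307R livers, against 20.1 and 24.2 CPM in the WT livers (log2 fold change 0.01, SE 0.21, edgeR adjusted p = 0.985, 95% interval -0.47 to 0.49). Lgals3bp, a secreted glycoprotein, was at 52.8 and 80.3 CPM in the K307R livers, against 92.00 and 86.5 CPM in the WT livers (log2 fold change -0.42, SE 0.23, edgeR adjusted p = 0.428), and here K307R replicate 2 lay close to the WT livers.

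**Figure D2:**
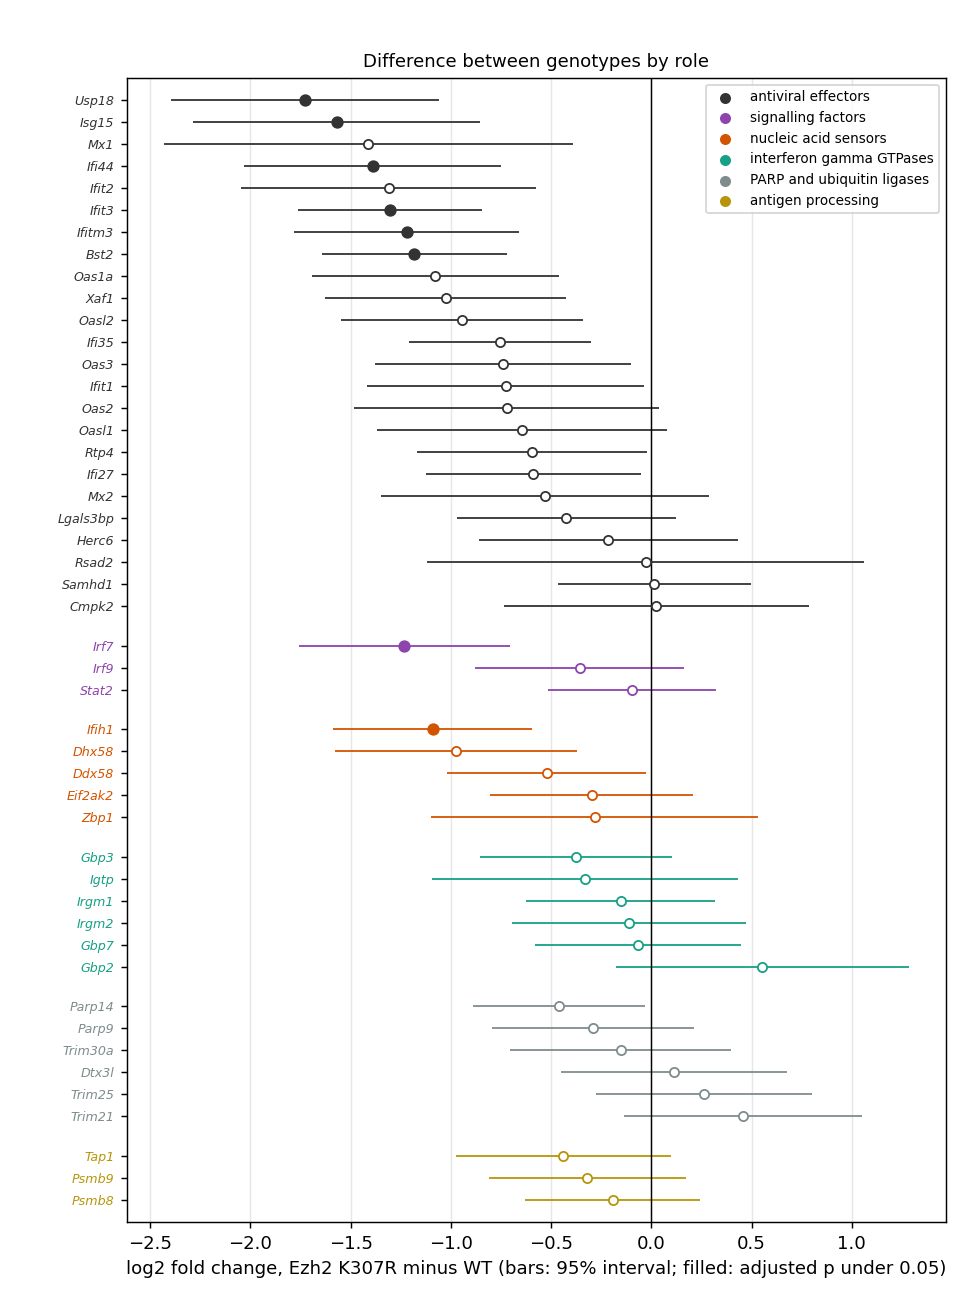
Log2 fold change of each of the 47 genes, K307R minus WT, with its 95% interval from edgeR, grouped and coloured by role. Filled points are the 8 genes with an adjusted p under 0.05, from Usp18 at -1.73 to Ifih1 at -1.09, and the intervals of all GTPases cross 0.

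Of the 3 signalling factors 1 fell. Irf7 (Entrez gene 54123, chromosome 7 from 141263183 to 141266499), the transcription factor that amplifies type I interferon production, was at 34.5 and 35.7 CPM in the K307R livers, against 97.8 and 67.03 CPM in the WT livers (log2 fold change -1.23, SE 0.23, edgeR adjusted p = 0.0363). Its mean was 35.1 ± 0.789 CPM in the K307R livers and 82.4 ± 21.7 CPM in the WT livers (mean ± SD, n = 2 each), and the K307R livers were nearly equal. Each of its 3 listed transcripts was lower in both K307R livers. The transcript of 1876 bases was at 8.73 and 10.57 FPKM in the K307R livers and at 28.46 and 18.86 FPKM in the WT livers, that of 1780 bases at 7.47 and 6.11 FPKM in K307R and 11.72 and 14.14 FPKM in WT, and that of 1783 bases at 2.97 and 3.64 FPKM in K307R and 7.42 and 5.65 FPKM in WT. Irf9 and Stat2, which encode subunits of the type I complex, had no call. Irf9 was at 20.5 and 29.5 CPM in the K307R livers, against 32.1 and 31.9 CPM in the WT livers (log2 fold change -0.36, SE 0.23, edgeR adjusted p = 0.488), without overlap but with 1 K307R liver close to WT. Stat2 was at 45.7 and 47.6 CPM in the K307R livers, against 47.1 and 52.6 CPM in the WT livers, with overlap (log2 fold change -0.10, SE 0.18, edgeR adjusted p = 0.843, 95% interval -0.52 to 0.32).

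Of the 5 nucleic acid sensors 1 fell and 0 rose. Ifih1 (Entrez gene 71586, chromosome 2 from 62595618 to 62646255) encodes MDA5, the sensor of long double-stranded RNA. It was at 25.3 and 24.3 CPM in the K307R livers, against 60.98 and 44.8 CPM in the WT livers (log2 fold change -1.09, SE 0.21, edgeR adjusted p = 0.0426), a mean of 24.8 ± 0.677 CPM in the K307R livers and 52.9 ± 11.4 CPM in the WT livers (mean ± SD, n = 2 each). The K307R livers were alike and both WT livers were higher, but without WT replicate 1 the call was lost (adjusted p = 0.0703). Dhx58, which encodes the regulator LGP2 of the same helicase family, was at 10.1 and 6.96 CPM in the K307R livers, against 19.2 and 14.5 CPM in the WT livers (log2 fold change -0.98, SE 0.26, edgeR adjusted p = 0.103). Ddx58, which encodes RIG-I, the sensor of RNA with a free triphosphate end, was at 31.6 and 23.5 CPM in the K307R livers, against 41.8 and 37.3 CPM in the WT livers (log2 fold change -0.52, SE 0.21, edgeR adjusted p = 0.273). All 3 helicase genes separated the genotypes in the same direction. Eif2ak2, the kinase PKR that stops translation on double-stranded RNA, was at 11.7 and 14.9 CPM in the K307R livers, against 17.9 and 14.9 CPM in the WT livers (log2 fold change -0.30, SE 0.22, edgeR adjusted p = 0.557). Zbp1, a sensor of Z-form nucleic acid that can start necroptosis, was at 8.17 and 18.4 CPM in the K307R livers, against 14.7 and 17.6 CPM in the WT livers (log2 fold change -0.28, SE 0.35, edgeR adjusted p = 0.754). Both overlapped, and in Zbp1 the K307R livers themselves lay further apart than the genotypes.

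The interferon gamma GTPases attack the vacuoles of intracellular pathogens. Of these 6 genes 0 fell and 0 rose in edgeR, 0 were past an unadjusted p of 0.05 and 0 were called in DESeq2, and their median log2 fold change was -0.13. Igtp, also called Irgm3, was at 37.2 and 62.3 CPM in the K307R livers, against 45.1 and 79.7 CPM in the WT livers (log2 fold change -0.33, SE 0.33, edgeR adjusted p = 0.683). Irgm2, 7.4 kb from Igtp on chromosome 11, was at 56.3 and 78.01 CPM in the K307R livers, against 59.1 and 85.96 CPM in the WT livers (log2 fold change -0.11, SE 0.25, edgeR adjusted p = 0.873). In each genotype replicate 2 was above replicate 1 for both neighbours, and this gap exceeded that between genotypes. Irgm1, a regulatory member of the family, was at 43.5 and 57.5 CPM in the K307R livers, against 56.1 and 56.2 CPM in the WT livers (log2 fold change -0.15, SE 0.20, edgeR adjusted p = 0.771). The genes of these 3 guanylate-binding proteins, Gbp2, Gbp3 and Gbp7, lie on chromosome 3. Gbp2 was at 13.5 and 9.57 CPM in the K307R livers, against 5.73 and 9.94 CPM in the WT livers (log2 fold change 0.55, SE 0.31, edgeR adjusted p = 0.439, 95% interval -0.18 to 1.28), the highest fold change of the 47. Its near copy Gbp2b could have shared reads. The sum of both copies was 15.9 and 13.6 CPM in the K307R livers, against 7.7 and 12.3 CPM in the WT livers, a log2 ratio of 0.56. This sum was higher in both K307R livers, unlike Gbp2 alone, and was not tested. Gbp7 was at 21.6 and 27.5 CPM in the K307R livers, against 22.4 and 28.97 CPM in the WT livers (log2 fold change -0.07, SE 0.22, edgeR adjusted p = 0.918) and Gbp3 at 8.75 and 9.31 CPM in the K307R livers, against 11.6 and 11.8 CPM in the WT livers (log2 fold change -0.37, SE 0.21, edgeR adjusted p = 0.426), and Gbp3 was the member of the 6 whose livers did not overlap. The 95% intervals of the GTPases ran from -1.09 at the lowest (Igtp) to 1.28 at the highest (Gbp2). The interval of Igtp thus reached the fall of Ifih1, and those of Igtp and Gbp3 held the median of the effectors. The difference between the GTPases and the effectors was not tested.

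The ADP-ribosyl transferases and ubiquitin ligases had 0 calls in either direction in edgeR and in DESeq2, 1 of 6 lower and 0 higher at an unadjusted p under 0.05, and a median log2 fold change of -0.02. Parp14, a mono-ADP-ribosyl transferase, was at 27.6 and 30.5 CPM in the K307R livers, against 41.3 and 38.7 CPM in the WT livers (log2 fold change -0.46, SE 0.18, edgeR adjusted p = 0.261), lower in both K307R livers. Parp9, which works in a complex with the ligase Dtx3l, was at 41.6 and 48.8 CPM in the K307R livers, against 63.9 and 46.9 CPM in the WT livers (log2 fold change -0.29, SE 0.22, edgeR adjusted p = 0.56). Dtx3l was at 35.9 and 55.9 CPM in the K307R livers, against 45.1 and 39.7 CPM in the WT livers (log2 fold change 0.11, SE 0.24, edgeR adjusted p = 0.862). The annotated spans of Parp9 and Dtx3l overlap by 558 bases, and no source used here names the strand setting of the counting, so that reads there could belong to either. Trim21, an intracellular antibody receptor, was the 1 gene higher in both K307R livers, at 9.39 and 7.21 CPM in the K307R livers, against 6.42 and 5.68 CPM in the WT livers (log2 fold change 0.46, SE 0.26, edgeR adjusted p = 0.432). Trim25, the ligase that acts on RIG-I, was at 61.5 and 88.3 CPM in the K307R livers, against 56.1 and 68.9 CPM in the WT livers (log2 fold change 0.26, SE 0.23, edgeR adjusted p = 0.634), and Trim30a, a repressor of inflammatory signalling, at 6.68 and 6.65 CPM in the K307R livers, against 7.87 and 6.96 CPM in the WT livers (log2 fold change -0.15, SE 0.24, edgeR adjusted p = 0.807). Reads of Trim30a could have been divided with Trim30b and Trim30d, and the log2 ratio of the 3 summed was 0.07.

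The antigen-processing genes lie within a short stretch of chromosome 17. Psmb9 and Psmb8 encode subunits of the immunoproteasome. Psmb9 was at 10.9 and 10.5 CPM in the K307R livers, against 11.98 and 14.7 CPM in the WT livers (log2 fold change -0.32, SE 0.21, edgeR adjusted p = 0.507). Psmb8 was at 26.4 and 23.2 CPM in the K307R livers, against 27.8 and 28.9 CPM in the WT livers (log2 fold change -0.19, SE 0.19, edgeR adjusted p = 0.674). Tap1, a subunit of the transporter that loads peptides for MHC class I, was at 19.7 and 25.1 CPM in the K307R livers, against 25.7 and 34.8 CPM in the WT livers (log2 fold change -0.44, SE 0.23, edgeR adjusted p = 0.399). All 3 were lower in both K307R livers in CPM by small amounts and overlapped between genotypes in FPKM, and 0 of 3 were called or past an unadjusted p of 0.05 in edgeR and 0 called in DESeq2.

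Added up by role, the largest gap lay in the effectors. The 24 effectors summed to 735 and 722 CPM in the K307R livers, against 1575 and 1425 CPM in the WT livers, a log2 ratio of -1.04, of which Ifitm3 made up the largest part. The 5 sensors summed to 86.9 and 88.1 CPM in the K307R livers, against 155 and 129 CPM in the WT livers (-0.70), and the 3 signalling factors to 101 and 113 CPM in the K307R livers, against 177 and 152 CPM in the WT livers (-0.62). In these 3 roles both K307R livers were below both WT livers. The 6 GTPases summed to 181 and 244 CPM in the K307R livers, against 200.1 and 273 CPM in the WT livers (-0.15), and the PARP and ligase genes to 183 and 237 CPM in the K307R livers, against 221 and 207 CPM in the WT livers (-0.03, but 0.06 with total-count scaling and on summed FPKM). Both of these overlapped. The antigen-processing genes summed to 56.98 and 58.8 CPM in the K307R livers, against 65.5 and 78.5 CPM in the WT livers (-0.31), without overlap in CPM but with overlap in summed FPKM. No test was made on the sums, since an exact permutation test of 2 against 2 livers cannot give a two-sided p below 0.33.

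**Figure D3:**
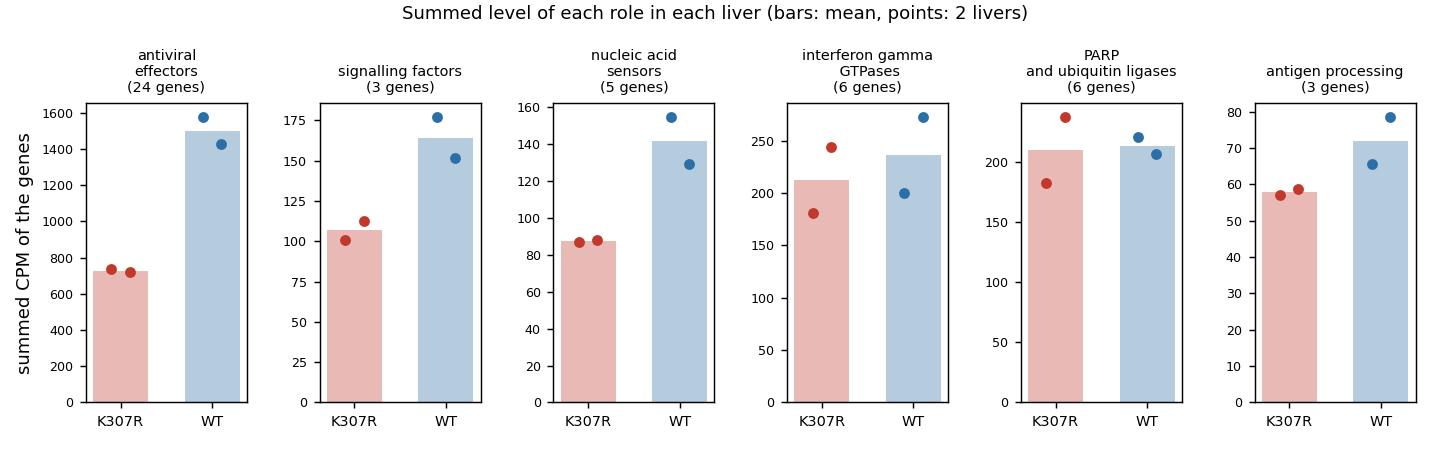
Summed CPM of the genes of each role in each liver, with K307R left of WT. Bars are means, points are the 2 livers of a genotype, and each panel has its own axis from 0; the effectors stood at 735 and 722 CPM in K307R and 1575 and 1425 CPM in WT, and the GTPases overlapped.

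The promoters were searched for the elements through which these genes are known to respond. RefSeq promoter windows of GRCm38.p6, from 250 bases before to 50 after the start, were found for 37 of the 47. The ISRE core was searched on both strands as GAAA, any 2 bases and GAAA again, and the GAS element as TTCNNNGAA, which reads the same on both strands. An ISRE core was in the windows of 20 of the 37 members (54.1%), against 3.99% of the 27025 genes with a window. A GAS match was in 11 of the 37 (29.7%), against 9.55%. An ISRE core was in 5 of the 7 called genes with a window (71.4%), in 15 of the 30 that were not called (50.0%), and in 6 of the 6 GTPases. The difference between called and uncalled genes was not tested. The windows below show the bases from -160 to -1 of 2 genes that fell and of 3 GTPases that were not called, 5′ to 3′ on the gene's own strand, with ISRE and GAS matches in capitals.
Isg15 (chr4:156200819-156200978, strand -): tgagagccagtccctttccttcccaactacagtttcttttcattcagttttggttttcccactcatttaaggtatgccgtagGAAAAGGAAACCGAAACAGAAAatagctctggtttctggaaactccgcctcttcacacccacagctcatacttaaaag
Bst2 (chr8:71537473-71537632, strand -): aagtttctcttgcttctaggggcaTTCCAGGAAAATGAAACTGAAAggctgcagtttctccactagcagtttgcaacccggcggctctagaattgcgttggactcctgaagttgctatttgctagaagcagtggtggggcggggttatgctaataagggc
Igtp (chr11:58199396-58199555, strand +): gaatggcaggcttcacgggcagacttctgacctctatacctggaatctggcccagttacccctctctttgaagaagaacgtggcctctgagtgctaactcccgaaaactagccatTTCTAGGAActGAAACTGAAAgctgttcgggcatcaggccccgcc
Irgm2 (chr11:58214817-58214976, strand +): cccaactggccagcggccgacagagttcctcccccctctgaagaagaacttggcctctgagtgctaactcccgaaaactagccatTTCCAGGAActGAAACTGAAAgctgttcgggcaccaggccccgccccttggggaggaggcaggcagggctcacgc
Irgm1 (chr11:48871421-48871580, strand -): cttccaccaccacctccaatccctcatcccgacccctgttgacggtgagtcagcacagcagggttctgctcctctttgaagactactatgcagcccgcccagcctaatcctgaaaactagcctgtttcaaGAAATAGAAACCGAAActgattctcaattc
In Isg15 the capitals are 3 overlapping ISRE cores from -78 to -57. In Bst2 a GAS match that starts at -136 overlaps ISRE cores that start at -130 and -124. Igtp and Irgm2 share the arrangement of a GAS match followed after 2 bases by an ISRE core, and Irgm1 has 2 overlapping ISRE cores that start at -30 and -24. A match is a run of letters and not a bound site.

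In edgeR as fitted above, no tested receptor, further transcription factor, negative regulator or upstream sensing gene was called. With 2 livers per genotype, this does not show that their levels were alike. Of 21 interferon genes searched for, Ifng was the 1 listed, with 1 and 4 reads in the K307R livers, against 0 and 2 reads in the WT livers, too few to test, and the other 20 were not listed in any of the 4 tables. Of 9 receptor and kinase genes 8 were tested, with 0 calls in either direction in edgeR, 0 past an unadjusted p of 0.05 and a median log2 fold change of 0.09. The type I receptor chain Ifnar1 was at 41.2 and 52.2 CPM in the K307R livers, against 40.97 and 37.9 CPM in the WT livers (log2 fold change 0.24, SE 0.20, edgeR adjusted p = 0.601), and the kinase Jak1 at 80.2 and 75.1 CPM in the K307R livers, against 93.7 and 88.8 CPM in the WT livers (log2 fold change -0.23, SE 0.18, edgeR adjusted p = 0.581). Il10rb, a chain of the interferon lambda receptor, was at 11.6 and 8.44 CPM in the K307R livers, against 7.29 and 8.71 CPM in the WT livers (log2 fold change 0.32, SE 0.25, edgeR adjusted p = 0.583), with overlap.

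Of the 8 further interferon transcription factors tested, 0 were called in edgeR. At an unadjusted p under 0.05, 2 were higher and 1 lower, against 8.5% and 8.31% over all genes. Irf1, which drives many interferon gamma targets, was at 29.4 and 22.7 CPM in the K307R livers, against 14.9 and 16.2 CPM in the WT livers (log2 fold change 0.74, SE 0.21, edgeR adjusted p = 0.119), above WT in both K307R livers. Irf2, its repressor relative, was at 60.3 and 62.6 CPM in the K307R livers, against 96.9 and 85.2 CPM in the WT livers (log2 fold change -0.57, SE 0.18, edgeR adjusted p = 0.171), below WT in both. Irf4, a lymphoid factor, had 16 and 12 reads in the K307R livers, against 3 and 4 reads in the WT livers (log2 fold change 1.97, SE 0.63, edgeR adjusted p = 0.165). Irf1 thus lay on the opposite side of WT from Irf7, without a call.

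Of the 12 negative regulators 0 were called in edgeR. At an unadjusted p under 0.05, 2 were higher and 1 lower, against 8.5% and 8.31% over all genes. The phosphatase genes Ptpn6 (0.48, edgeR adjusted p = 0.289) and Ptpn2 (-0.47, 0.296) and the corepressor gene Irf2bp2 (0.47, 0.237) had the smallest p. Of the 22 tested genes that act upstream of interferon production, 0 were called in edgeR. Beside the same shares over all genes, 1 was higher and 1 lower at an unadjusted p under 0.05. Ikbke, a kinase that activates IRF3 and IRF7 and is itself induced by interferon, was at 18.5 and 22.9 CPM in the K307R livers, against 34.2 and 46.2 CPM in the WT livers (log2 fold change -0.96, SE 0.23, edgeR adjusted p = 0.0752). It was lower in both K307R livers and passed the test in DESeq2 (adjusted p = 0.0137), with no filter (0.0211) and without WT replicate 1 (0.0161). The RNA sensor gene Tlr8 (1.41, edgeR adjusted p = 0.152) and the lipopolysaccharide receptor gene Tlr4 (0.50, 0.554) were higher in both K307R livers without a call.

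**Figure D4:**
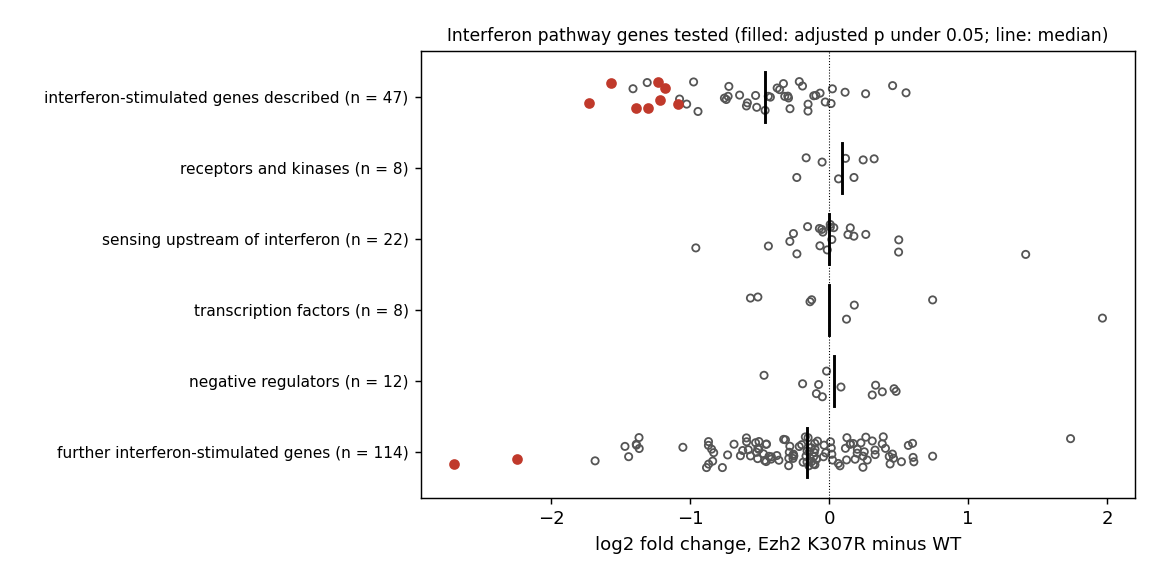
Log2 fold change, K307R minus WT, of each tested gene of the interferon pathway by list, with vertical lines at the medians and filled red points for an adjusted p under 0.05. The 47 genes have a median of -0.46 and 8 filled points, the further interferon-stimulated genes a median of -0.16 and 2 filled points, and the receptors, factors, regulators and upstream sensors none.

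A broader list of 114 further interferon-stimulated genes that were tested gave 2 falls and 0 rises, where 1.47% of all genes were called lower, so that the share called was near that over all genes. At an unadjusted p under 0.05, 18 of the 114 were lower and 2 higher, against 8.31% and 8.5% over all genes. Both K307R livers lay below both WT livers for 45 and above them for 18, against 23.4% and 25.2% over all genes. The median log2 fold change was -0.16. This list too was chosen with earlier results of these data known. The calls were a pair of relatives on chromosome 14, Phf11a and Phf11c. Phf11a was at 0.69 and 1.33 CPM in the K307R livers, against 3.82 and 5.82 CPM in the WT livers (log2 fold change -2.25, SE 0.44, edgeR adjusted p = 0.0418), and Phf11c at 1.27 and 1.13 CPM in the K307R livers, against 3.76 and 11.8 CPM in the WT livers (log2 fold change -2.70, SE 0.55, edgeR adjusted p = 0.0469). Their reads could be shared with Phf11b and Phf11d, and neither call was kept with total-count scaling, limma-voom, either FPKM scale, a minimum of 1 CPM or without either K307R liver. Phf11c also lost its call with upper-quartile factors (adjusted p = 0.0519) and with the replicate block (0.0572). Ifi27l2a, a relative of Ifi27, was at 5.09 and 2.81 CPM in the K307R livers, against 10.6 and 9.75 CPM in the WT livers (log2 fold change -1.37, SE 0.32, edgeR adjusted p = 0.0711) and did not overlap between genotypes. Ifi27 lies within the annotated span of Ifi27l2a, so that without a known strand setting reads there could belong to either gene.

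The livers of a genotype also differed among themselves. Of the 47 genes, 30 were higher in K307R replicate 2 than in replicate 1, against 50.0% of all genes tested, and 21 were higher in WT replicate 2 than in replicate 1, against 50.7%. The widest gaps within K307R were in Rsad2 (3.10 times as high in replicate 2), Zbp1 (2.25 times) and Isg15 (1.90 times). The 8 called genes were lower in both K307R livers in each case, which their selection by the test favours.

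**Figure D5:**
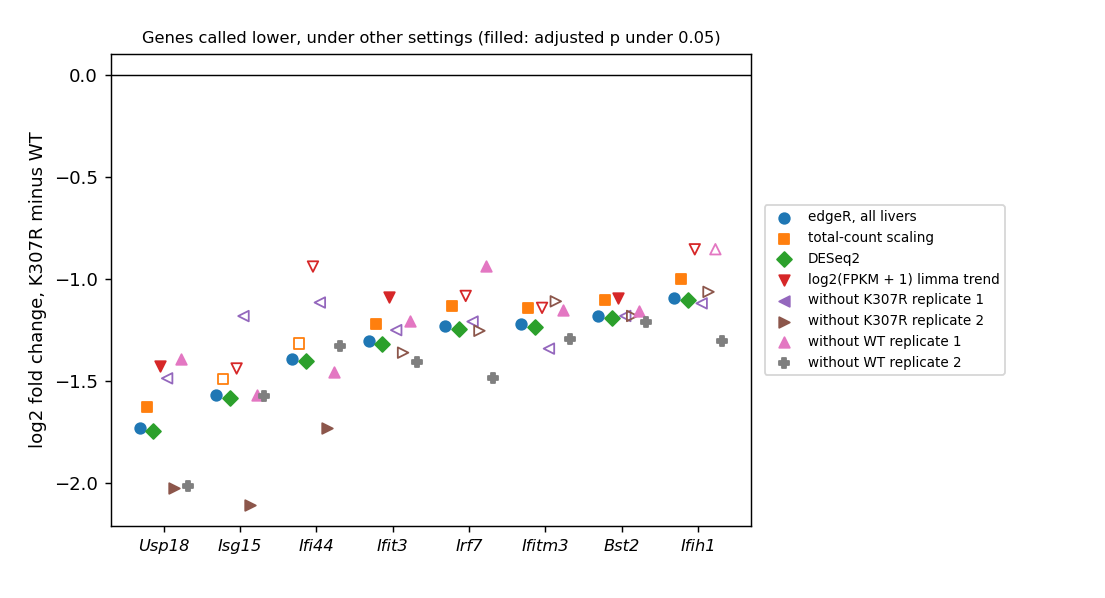
Log2 fold change, K307R minus WT, of the 8 called genes with all livers and under 7 other settings, filled where the adjusted p was under 0.05. All values lie below 0, which leaving out a liver could hardly change, since both K307R livers lay below both WT livers for each gene. The points without K307R replicate 1 are open for all 8 genes.

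Marker genes of other liver cells were added up in the same way. Of their tested genes 0 were called lower, against 1.47% of all genes. Kupffer cell markers summed to 531 and 366 CPM in the K307R livers, against 303 and 349 CPM in the WT livers (0 of 12 called). This sum was higher in both K307R livers. Of the 12 genes 6 were higher in both K307R livers and 0 lower in both, against 25.2% and 23.4% over all genes. At an unadjusted p under 0.05, 4 were higher and 0 lower. Plasmacytoid dendritic cell markers summed to 1.27 and 1.07 CPM in the K307R livers, against 0.868 and 0.805 CPM in the WT livers, also higher in both K307R livers (0 of 6 tested, with Cox6a2 at 0 reads in both K307R livers). T and NK cell markers summed to 7.16 and 5.88 CPM in the K307R livers, against 5.61 and 7.9 CPM in the WT livers (0 of 8 called) and dendritic cell markers to 7.06 and 5.17 CPM in the K307R livers, against 4.46 and 5.25 CPM in the WT livers (0 of 5 called). Sinusoidal endothelial markers summed to 122 and 145 CPM in the K307R livers, against 87.8 and 125 CPM in the WT livers (0 of 8 called). None of these 5 sums was lower in both K307R livers than in both WT livers. Those of the plasmacytoid dendritic, dendritic, and T and NK cell markers were at most 7.9 CPM in any liver, too low to show small differences. Stellate cell markers were higher, at 281 and 221 CPM in the K307R livers, against 87.3 and 122 CPM in the WT livers. Of these, 2 of 6 rose, where 1.39% of all genes were called higher. The 10 hepatocyte markers summed to 130516 and 132978 CPM in the K307R livers, against 140191 and 138635 CPM in the WT livers (0 of 10 called). This sum was below WT in both K307R livers in CPM but overlapped between genotypes in FPKM. In FPKM it was 67616 and 70392 in the K307R livers, against 65434 and 77296 in the WT livers. B cell markers summed to 15.7 and 4.04 CPM in the K307R livers, against 5.15 and 7.19 CPM in the WT livers (0 of 5 called), neutrophil markers to 17.1 and 10.5 CPM in the K307R livers, against 13.3 and 11.1 CPM in the WT livers (0 of 4 called) and bile duct markers to 31.99 and 59.8 CPM in the K307R livers, against 70.3 and 54.3 CPM in the WT livers (0 of 5 called), each with overlap. At an unadjusted p under 0.05, 8.5% of all genes were higher and 8.31% lower. At this threshold 1 T and NK cell marker was lower and 0 higher, and 2 sinusoidal endothelial markers were higher and 1 lower. Of the stellate cell markers 5 were higher and 0 lower. B cell, neutrophil and bile duct markers had 1 higher each and 0 lower, and dendritic cell and hepatocyte markers 0 either way. The part of these cell types in the differences above was not tested.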

How the data were processed

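RNA of 4 livers was sequenced by BGI, per the labels. Per the submitters' processing notes, HISAT, Bowtie2 and RSEM were used with mm10. No source used here gives tool versions, read length or strand setting. The deposited tables list RefSeq transcripts with RSEM's expected counts, which were not normalized, and with FPKM, which the authors scaled to length and depth. Unlisted transcripts were set to 0. Expected counts were summed per Entrez gene and rounded. Symbols came from RefSeq's GRCm38.p6 table, which named 17502 of 17543 genes.

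Genotypes were compared in edgeR 4.0.16 (R 4.3.3) by the quasi-likelihood method, after TMM scaling and filterByExpr, with genotype as the 1 term, adjusted by Benjamini-Hochberg over 12837 genes, at a threshold of 0.05 and with 2 residual degrees of freedom among livers. The common biological coefficient of variation was 0.217. Levels are in CPM of the TMM-scaled libraries, errors are SDs over 2 livers, and 95% intervals come from the fit. Counts of replicates lay further apart than sampling alone gives (chi-square over genes, divided by their number, 51.8 in K307R and 95 in WT). Other settings used DESeq2 1.42.0 and limma 3.58.1.

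The members, role groups and lists were chosen with earlier results of these data known. Per-liver values are given for called genes, for genes whose livers did not overlap with an absolute log2 fold change of at least 0.5, and for the 3 smallest p per role. From each pathway list the called genes and the 3 with the smallest p are named. Other genes with values, among them the remaining members, Ifitm1, Ifitm2 and Ifi27l2a, were named after their values were seen. The values of 1 gene of these lists are not reported here.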

Additional observations from a re-analysis of the deposited data

How the results depend on the processing

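Each genotype had 2 livers, and the shallowest member, Mx1, had 14 to 56 reads a liver. The fall of the 8 called genes kept its direction in every setting run (RLE, upper-quartile and total-count scaling, DESeq2, limma-voom, FPKM, both filters, the replicate block and leaving out each liver), and the cause of lost calls was not tested. The count of members called lower was 8 with all livers, 3 on log2(FPKM + 1) and 3 on log2(FPKM + 0.1), and 0 to 10 when a liver was left out. The members' median was -0.32 on log2(FPKM + 1) and -0.64 to -0.34 without a liver. A lone liver is assumed to vary as those of the other genotype do. Over all genes tested, the deviations of livers with the same replicate number had a correlation of -0.0027, which cannot show pairing confined to some genes. Of the 6 GTPases, 5 were higher in K307R replicate 2 than 1 and 6 in WT replicate 2 than 1, against 50.0% and 50.7% of all genes. With the replicate block 8 members were called lower.

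Over all genes, higher and lower calls were 368 and 370 with DESeq2, 410 and 419 with no filter, 94 and 69 on log2(FPKM + 1), and 91 and 70 on log2(FPKM + 0.1). With total-count scaling they were 188 and 124, against 178 and 189 with TMM factors. Without a liver they were 117 to 327 higher and 94 to 393 lower. Further interferon-stimulated genes called lower numbered 2, against 1 with upper-quartile factors, 0 with total-count scaling, 5 with DESeq2, 0 with limma-voom, 0 on either FPKM scale, 5 with no filter, 0 at a mean of 1 CPM, 1 with the replicate block and 1 to 4 without a liver. The summed effectors were at -0.96 with total-count scaling, against -1.04.

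Signs turned in uncalled members near 0. Leaving out a liver gave ranges that crossed 0 for Rsad2 (-1.06 to 0.57), Cmpk2 (-0.42 to 0.36), Gbp7 (-0.25 to 0.13), Samhd1 (-0.13 to 0.15), Herc6 (-0.54 to 0.19), Zbp1 (-0.98 to 0.19), Igtp (-0.75 to 0.14), Irgm1 (-0.37 to 0.037), Irgm2 (-0.36 to 0.18), Dtx3l (-0.24 to 0.40) and Trim25 (-0.0203 to 0.50). Rsad2 was at 0.06 with total-count scaling, Cmpk2 at -0.026 with limma-voom and -0.014 with the replicate block, and Gbp7 at 0.013 on log2(FPKM + 1) and 0.019 on log2(FPKM + 0.1). Of the members' values under the other settings, 600 kept direction and side of the threshold, 27 lost a call and 8 gained one.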
